A study of Mus musculus with 57 samples.

Results

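The comparison described here is between the earliest FOXA2-positive cells that were sorted, Sox1-FOXA2+ cells after 2 days (D2) of differentiation, and the undifferentiated embryonic stem cells (ESCs) at D0 from which they arose. Its members are 6 of the 57 RNA-Seq libraries of the series, 3 of each group, chosen by their sample titles alone, and the comparison runs across all genes. All cells were of a Sox1-EGFP/FoxA2mCherry mouse ESC line, made from a line in which EGFP replaces one Sox1 allele, with mCherry added to the end of FoxA2 by CRISPR-Cas9, so every group carries both reporters. D0 cells were double-negative (Sox1-FOXA2-) and were kept in serum with LIF on gelatin, whereas D2 cells had spent 2 days in N2B27 with 1 uM retinoic acid (RA) and no LIF. Gates were set on wild-type R1 cells. The 3 Sox1-FOXA2- libraries of D2, from the same medium and day, are set beside them to show where the FOXA2 gates differed. Between D2 and D0 the medium, the RA, the loss of LIF, the time and the FOXA2 gate change together and cannot be told apart.

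FOXA2 is a forkhead transcription factor of endoderm, node, notochord and floor plate, and SOX1 marks neuroectoderm. ESCs in serum and LIF hold a network of pluripotency factors around OCT4, SOX2 and NANOG, and LIF keeps the naive part of this network active through STAT3. RA binds nuclear receptors (RARs), which switch on the genes of RA breakdown and storage, several RARs themselves and the Hox genes. Primitive, visceral and parietal endoderm are extraembryonic lineages that use GATA6, GATA4, SOX17, SOX7 and FOXA2 and lay down a basement membrane of laminin and type IV collagen.

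The 6 libraries held between 20391512 and 61358355 counts on genes and between 16669 and 18547 genes with a count. Mitochondrial genes took 3.21% to 18.1% of counts at D0 and 9.31% to 17% in FOXA2+ cells. Ribosomal protein genes took 4.58% to 5.15% at D0 and 2.94% to 3.62% in FOXA2+ cells, with no overlap (exact two-sided permutation, p = 0.1, the lowest value possible with 3 against 3). Within groups, some libraries stood apart in genes that bear on the results. D0 replicate 2 had 4201 normalized counts of Fgf5, a gene of primed epiblast, against 22.4 and 0 in replicates 1 and 3, and 76870 counts of Dnmt3b against 7952 and 5705. It was also the lowest of the 3 in the naive factors Esrrb (2947 against 14270 and 12330) and Klf4 (1622 against 10970 and 5767). FOXA2+ replicate 1 was the lowest of its group in Gata4 (75.9 against 1139 and 1112) and Lama1 (2891 against 15670 and 25000). Where a list had 3 or more calls, the count is given also without a library whose omission moved it by over 1.5 times. A normalized count is a gene's count divided by the library's DESeq2 size factor. The table has a gap that touches many listed genes: all 13127 genes whose span from start to end lies whole under the spans of other genes had 0 counts in every one of the 57 libraries, 9566 of them with no exon overlap at all, whereas 85.9% of genes clear of other spans had counts. A gene so placed was not measurable here, and 0 says nothing of its expression.

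Of 21037 genes that passed a filter on low counts, 462 were called higher (2.2%) and 371 lower (1.76%) in Sox1-FOXA2+ cells at D2 than at D0, together 833 or 3.96% (edgeR quasi-likelihood test, Benjamini-Hochberg adjusted p under 0.05). Without adjustment 3981 genes had p under 0.05. Of the 833, 821 had no overlap between the 3 and 3 libraries. Of all genes tested, 22.6% had none. The median log2 fold change over all genes was 0.06. With upper quartile scaling the calls were 373 higher and 634 lower, so that 37% of calls were higher instead of 55.5%. Sox1-FOXA2- cells of D2, set against the same D0 libraries, had 461 genes called (2.19%). The number of genes called higher dropped to 302 without D0 replicate 3, to 240 without FOXA2+ replicate 1 and to 297 without FOXA2+ replicate 2. The number called lower dropped to 195 without D0 replicate 1, to 118 without FOXA2+ replicate 1 and to 194 without FOXA2+ replicate 3.

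**Figure D1:**
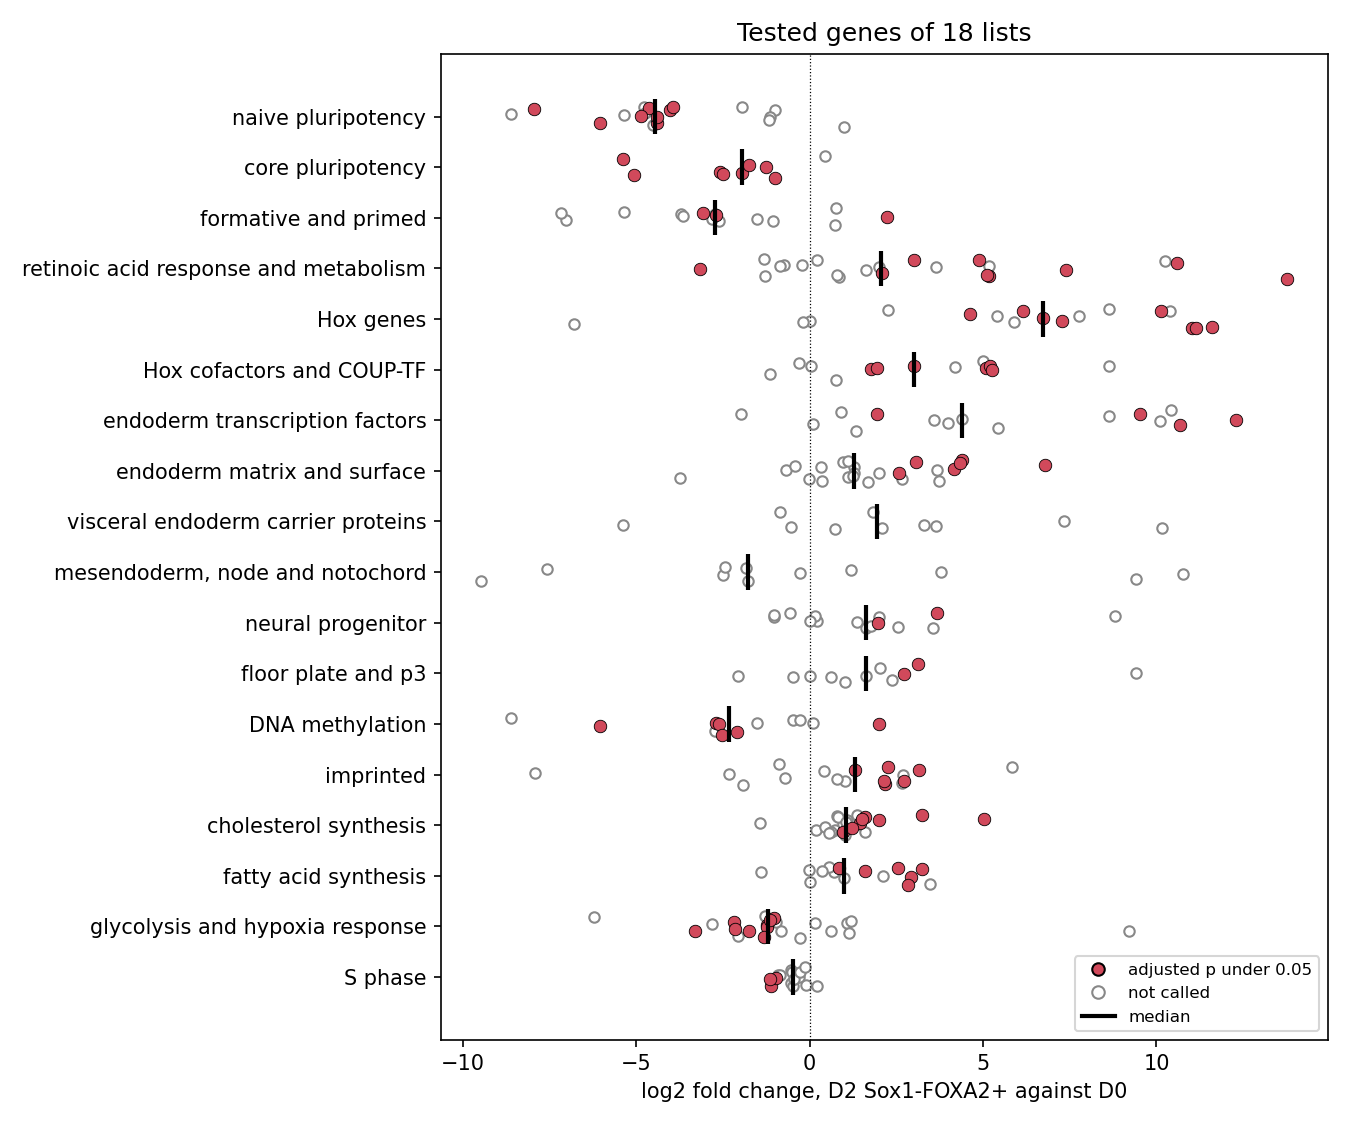
Log2 fold change of D2 Sox1-FOXA2+ cells against D0 (x axis) for each tested gene of 18 gene lists (y axis), with genes at an adjusted p under 0.05 filled and the median of each list as a bar. Hox genes have a median of 6.72 and naive pluripotency genes one of -4.48, while no gene of the visceral endoderm carrier or mesendoderm lists is filled.

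Foxa2 lies on chromosome 2 (148042877 to 148046969, GRCm38) and is the gene the gate reports. It had 4.98, 0 and 0 normalized counts in the 3 D0 libraries and 3241, 3057 and 1646 in the FOXA2+ libraries, whereas the Sox1-FOXA2- libraries of D2 had 107, 0 and 0. The mRNA therefore followed the gate in all 9 libraries, with a log2 fold change over D0 of 10.67 ± 2.25 (SE, adjusted p = 0.00996). Sox1 had 0 counts in all 15 libraries of D0 and D2, those of the Sox1+ gates included, but its span lies whole under that of Sox1ot, so its RNA gives no check on the Sox1 gate.

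Of 15 endoderm transcription factors tested, 4 were called higher and 0 lower, and the median log2 fold change was 4.39 against 0.06 over all genes. Foxa2 itself was among the 4, and as the gene the gate reports its call follows from the sort. Sox17, an endoderm regulator of the SOX family, was at 0 in every D0 library and had 175, 787 and 537 counts in FOXA2+ cells. This was at least 527-fold higher, with the D0 group put at a floor of 3 counts (adjusted p = 0.00872). If a fragment entered as 2 counts, the floor would be 6 counts, and this and every other such bound would be lower by a factor of 2. Its relative Sox7 went from 0, 0 and 4.13 to 381, 1310 and 603 (log2 fold change 9.52 ± 2.38, adjusted p = 0.0277). Tcf7l2, a nuclear effector of Wnt signalling, went from 1078, 1390 and 1062 to 4560, 5403 and 2995 (1.93 ± 0.34, adjusted p = 0.00306). Sox17 and Tcf7l2 were called whichever of the 6 libraries was left out, whereas Sox7 was not without D0 replicate 1, D0 replicate 2 or FOXA2+ replicate 2 (adjusted p from 0.0785 to 0.0994). In the double-negative cells of D2, Sox17 had 69.3, 0 and 9.24 counts and Sox7 had 177, 0 and 27.7, each below the lowest FOXA2+ library. In bulk RNA more positive cells and more RNA per cell cannot be told apart.

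The GATA factors did not pass the test. Gata6, the early regulator of primitive endoderm, had 0, 0 and 86.8 counts at D0 and 365, 1288 and 1703 in FOXA2+ cells (5.43 ± 2.02, adjusted p = 0.161). Gata4, which acts beside it, had 2.49, 3.96 and 209 counts at D0 and 75.9, 1139 and 1112 in FOXA2+ cells, so the groups overlapped (3.58 ± 1.63, adjusted p = 0.252). Foxa1, the closest relative of Foxa2, had 0, 169 and 0 counts at D0 and 788, 767 and 1227 in FOXA2+ cells, and it passed without D0 replicate 2 (adjusted p = 0.000256) but not with it (0.138). Without D0 replicate 3, 7 of the listed factors were called, Foxa2 included. Per kilobase of exon outside other genes' spans, the mean level in FOXA2+ cells was 1117 for Foxa2, 492 for Tcf7l2, 279 for Foxa1, 232 for Sox7, 199 for Gata4, 177 for Gata6 and 126 for Sox17. Foxa2 lay above the other 6 in every library, whereas each of the 6 overlapped its neighbour in this order over the replicates. The counts may include reads from introns, which a division by exon length does not allow for. The order of different genes by this measure is therefore uncertain.

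**Figure D2:**
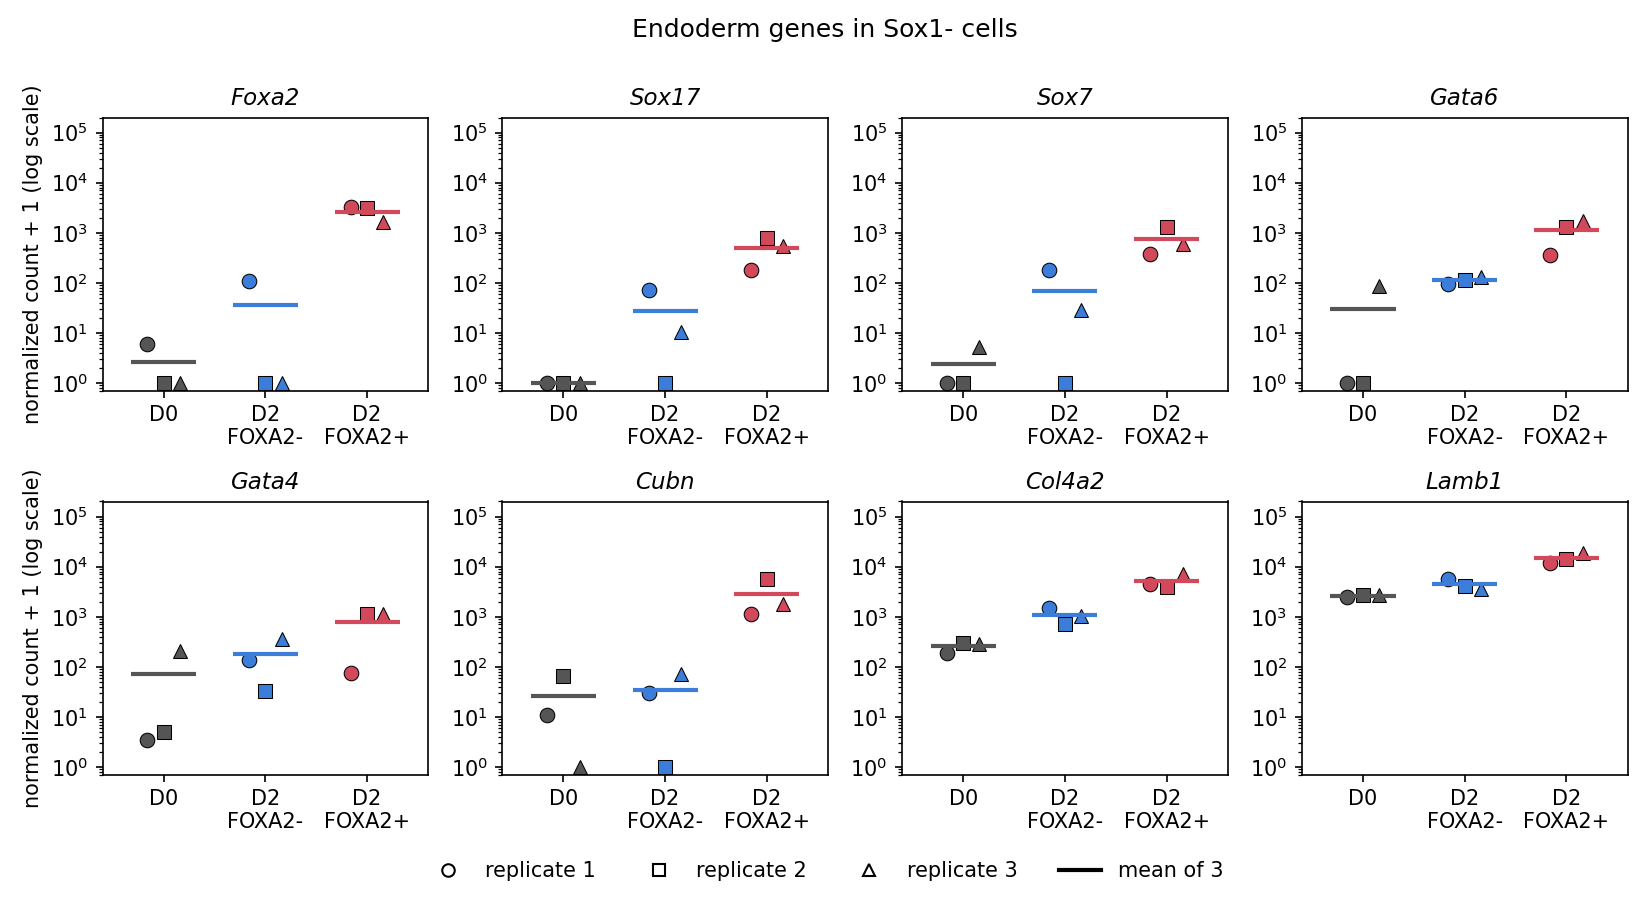
Normalized count plus 1 on a log axis for 8 endoderm genes at D0, in double-negative cells of D2 and in FOXA2+ cells of D2, one point for each of 3 replicates and a bar for their mean. Foxa2, Sox17, Sox7, Gata6, Cubn, Col4a2 and Lamb1 are higher in every FOXA2+ library than in every other library shown, while Gata4 overlaps.

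Of 23 basement membrane and surface genes of endoderm tested, 6 were called higher and 0 lower, with a median of 1.29. Col4a2, a type IV collagen chain, went from 189, 294 and 279 counts to 4604, 3842 and 7202 (4.39 ± 0.54, adjusted p = 0.000118). Its partner chain Col4a1 went from 2374, 725 and 1248 to 8891, 13310 and 12980 (3.07 ± 0.62, adjusted p = 0.00804). Lamb1, the laminin beta chain, went from 2426, 2689 and 2704 to 12030, 14530 and 18960 (2.58 ± 0.43, adjusted p = 0.00179). These 3 genes were higher in every FOXA2+ library than in every library of the other groups. Lama1, the matching alpha chain, had 2884, 202 and 4136 counts at D0 and 2891, 15670 and 25000 in FOXA2+ cells and just missed the threshold (2.67 ± 0.76, adjusted p = 0.0561). It was 2412, 1656 and 1793 in double-negative cells.

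Cubn, the endocytic receptor cubilin of visceral endoderm, went from 9.95, 65.9 and 0 counts to 1151, 5647 and 1795 (6.79 ± 1.79, adjusted p = 0.0377) and had 28.5, 0 and 70.2 in double-negative cells. It was not called without D0 replicate 1 or 3 or FOXA2+ replicate 1 or 2 (adjusted p from 0.0512 to 0.18). Dab2, the adaptor that cubilin endocytosis uses, went from 7.47, 861 and 8.27 to 1872, 9989 and 3895 (4.17 ± 1.15, adjusted p = 0.0462). Its call was lost without D0 replicate 1 or 3 or FOXA2+ replicate 2 or 3 (adjusted p from 0.0553 to 0.158). Serpinh1, the collagen chaperone, went from 856, 2.64 and 612 to 8243, 10300 and 9810 (4.34 ± 0.89, adjusted p = 0.00872). Sparc and Lamc1 were not called. The secreted carrier proteins of mature visceral endoderm gave no call among 10 tested, and 7 others of that list were below the filter. Ttr, for example, had 351, 0 and 2.19 counts in FOXA2+ cells, and Afp, with 63.8% of its exon bases under other spans, had 0, 0 and 463.

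Markers of mesendoderm, node and notochord, the other tissues that use FOXA2, gave no call among 11 tested of 17 listed. Mixl1, Mesp1, Evx1, Noto, Nog and Cer1 were below the filter and were not tested. T (Brachyury) had 373, 18.5 and 0 counts at D0 and 1.81, 0 and 0 in FOXA2+ cells, and Gsc had 0 in all 3 of the latter. Eomes was spread from 32.5 to 913 in FOXA2+ cells and from 0 to 456 at D0. Of 11 floor plate genes tested, 2 were called higher, and Nkx2-2 of that list was below the filter. Ptch1, the Hedgehog receptor and a target of that pathway, went from 3887, 3086 and 2166 to 11560, 26740 and 20090 (2.72 ± 0.40, adjusted p = 0.000709), and was 2936, 4269 and 6432 in double-negative cells. Shh itself, with 48.8% of its exon bases under other spans, was at 0 in every D0 library and had 45.2, 0 and 169 counts in FOXA2+ cells (adjusted p = 0.26). Lmx1b was the other gene called (3.13 ± 0.86, adjusted p = 0.0464). Its call was lost whichever of the 6 libraries was left out (adjusted p from 0.0504 to 0.251).

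Of 22 genes of RA response and metabolism tested, 8 were called higher and 1 lower, with a median of 2.04, or 1.81 with genes that were at 0 in a group put at their bound. Cyp26b1 and Cyp26a1 encode the cytochromes that break RA down. Cyp26b1 was at 0 in every D0 library and had 1841, 645 and 1810 counts in FOXA2+ cells, at least 1153-fold higher (adjusted p = 6.19e-05). Cyp26a1 (chromosome 19, 37697798 to 37701536) went from 0, 0 and 16.5 to 2782, 4736 and 8951 (10.60 ± 1.04, adjusted p = 1.13e-05). Rarb, an RA receptor, went from 2.49, 177 and 124 to 5089, 3582 and 1870 (5.16 ± 0.89, adjusted p = 0.00243). About 38.4% of its exon bases lie under the spans of other genes, where reads were not counted. Stra8, a gene named for its induction by RA, had 1294, 92.3 and 1112 counts at D0 and 25080, 26340 and 31010 in FOXA2+ cells (5.11 ± 0.62, adjusted p = 0.000104). Dhrs3, which returns retinal to retinol, went from 52.3, 0 and 0 counts to 5393, 2167 and 1115 (7.40 ± 1.18, adjusted p = 0.00133), and the size of its fold rests on D0 replicate 1, the one D0 library with a count. Stra6, the receptor that takes up retinol, rose by 4.88 ± 1.16 (adjusted p = 0.0208, or 0.0647 without FOXA2+ replicate 1). Rarg went the other way, from 5731, 3508 and 4742 to 508, 575 and 419 (-3.16 ± 0.54, adjusted p = 0.00232).

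Double-negative cells of D2 had these transcripts too. Cyp26a1 had 3671, 4581 and 1316 counts in the latter and Stra8 had 46430, 36300 and 33500, and 9 of the 22 genes were called higher there against the same D0 libraries. In the test between the gates none of the 22 was called, with a median of -0.09.

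The promoters of 4 genes of the RA list that were called higher are printed here, the pair that breaks RA down, a receptor and a gene named for its induction by RA, so that their letters can be read beside the changes of the mRNAs. They were chosen after these values were seen. They are the 250 bases before the RefSeq start on GRCm38.p6, 5′ to 3′ on the gene's strand, with capitals for matches on either strand to AGGTCA, the hexamer that RARs bind, or to its relative AGTTCA. The Cyp26b1 promoter lies at chr6:84593811-84594060 on the minus strand, that of Cyp26a1 at chr19:37697558-37697807 on the plus strand, that of Rarb at chr14:16575477-16575726 on the minus strand and that of Stra8 at chr6:34920698-34920947 on the plus strand.
Cyp26b1: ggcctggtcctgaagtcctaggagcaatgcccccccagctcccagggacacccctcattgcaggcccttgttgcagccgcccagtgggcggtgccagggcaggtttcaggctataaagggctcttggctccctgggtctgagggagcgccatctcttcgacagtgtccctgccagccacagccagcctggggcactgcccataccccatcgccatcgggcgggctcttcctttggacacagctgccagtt
Cyp26a1: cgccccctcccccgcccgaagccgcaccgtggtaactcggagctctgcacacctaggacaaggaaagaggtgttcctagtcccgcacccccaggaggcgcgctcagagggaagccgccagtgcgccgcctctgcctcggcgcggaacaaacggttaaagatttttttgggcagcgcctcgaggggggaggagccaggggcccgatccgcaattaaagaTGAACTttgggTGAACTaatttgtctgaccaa
Rarb: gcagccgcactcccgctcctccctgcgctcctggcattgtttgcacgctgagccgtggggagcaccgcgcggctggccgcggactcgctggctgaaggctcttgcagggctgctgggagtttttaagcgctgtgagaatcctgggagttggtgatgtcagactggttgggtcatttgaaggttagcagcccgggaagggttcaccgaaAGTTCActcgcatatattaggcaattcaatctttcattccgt
Stra8: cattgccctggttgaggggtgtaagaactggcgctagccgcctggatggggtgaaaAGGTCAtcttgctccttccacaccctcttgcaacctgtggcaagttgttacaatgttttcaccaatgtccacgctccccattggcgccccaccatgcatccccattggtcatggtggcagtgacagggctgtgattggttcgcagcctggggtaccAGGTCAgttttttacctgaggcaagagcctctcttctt
The Cyp26a1 promoter held AGTTCA on the opposite strand at 32 to 27 and again at 21 to 16 bases before the start. The Rarb promoter held AGTTCA at 42 to 37 bases, and the Stra8 promoter held AGGTCA at 194 to 189 and at 38 to 33 bases. The Cyp26b1 window held neither. Of 32851 promoters of this length, 24.2% held at least 1 match and 3.7% held 2 or more. Among the 8 RA genes called higher, 7 had a promoter in the table and 3 of these held a match, namely Cyp26a1, Rarb and Stra8. A match is a description of these letters and was not tested as a binding site.

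Hox genes give cells their position along the body axis. Of 39 listed, 22 were below the filter, and 12 of these 22 lie whole under the spans of other genes and could not be measured. Of the 17 tested, 8 were called higher and 0 lower, with a median of 6.72, or 6.14 with genes at 0 put at their bound. The calls spanned early and late positions of the clusters. Hoxb1 went from 49.8, 0.659 and 0 to 3030, 2081 and 2691 (7.28 ± 1.21, adjusted p = 0.00179). Hoxb9, from the other end of its cluster, went from 0, 0 and 4.13 to 882, 631 and 1576 (10.12 ± 1.18, adjusted p = 7.76e-05). Hoxb7 was at 0 at D0 and at 159, 138 and 346 in FOXA2+ cells, at least 178-fold higher (adjusted p = 0.0027). In double-negative cells of D2 Hoxb9 had 1076, 859 and 261 counts, which overlapped the FOXA2+ cells. Hoxb1, Hoxb7 and Hoxb9 were called whichever of the 6 libraries was left out. The list had 5 calls without D0 replicate 1 and 4 without FOXA2+ replicate 1.

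Among cofactors of HOX proteins and their relatives, 6 of 13 were called higher and 0 lower, with a median of 3.02. Meis1 went from 27.4, 178 and 385 counts to 5434, 7128 and 6185 (5.09 ± 0.77, adjusted p = 0.000845). Meis2 went from 19.9, 324 and 521 to 18520, 6713 and 5282 (5.21 ± 0.90, adjusted p = 0.00246). Of 23 neural progenitor genes listed, 15 passed the filter and were tested, and 2 of these were called higher. Pax6, an eye and neural tube factor, went from 52.3, 166 and 8.27 to 900, 546 and 1545 (3.67 ± 0.88, adjusted p = 0.0214), and was 849, 487 and 479 in double-negative cells. Msi1 was the other (1.98 ± 0.51, adjusted p = 0.0349). Pax6 lost its call without D0 replicate 1 or 3 or FOXA2+ replicate 3 (adjusted p from 0.0528 to 0.0793), and Msi1 in every case but the omission of D0 replicate 2 (0.0538 to 0.147). Nes, which encodes nestin, was not (0.22, adjusted p = 0.9).

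**Figure D3:**
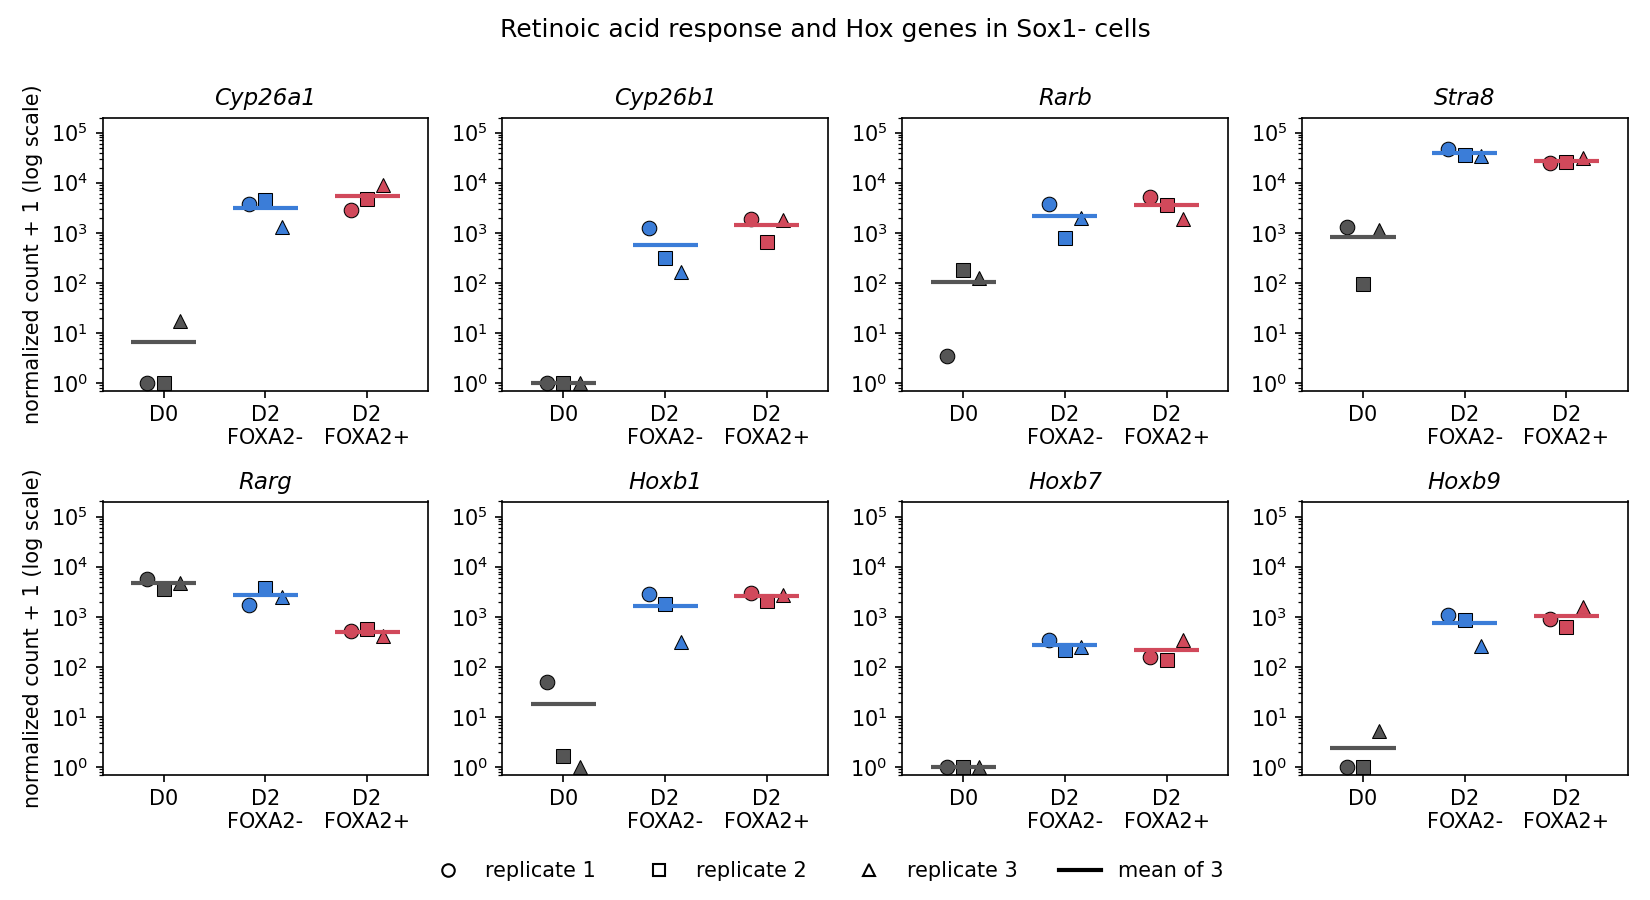
Normalized count plus 1 on a log axis for 5 RA response genes and 3 Hox genes at D0, in double-negative cells of D2 and in FOXA2+ cells of D2, one point per replicate and a bar for the mean of 3. Cyp26a1, Cyp26b1, Rarb, Stra8, Hoxb1, Hoxb7 and Hoxb9 are higher in all D2 libraries of both gates than at D0, while Rarg is lowest in FOXA2+ cells.

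Of 18 naive pluripotency genes tested, 8 were called lower and 0 higher, with a median of -4.48. Nanog had 10480, 5448 and 12560 counts at D0 and 0.903, 0.983 and 117 in FOXA2+ cells (-7.96 ± 1.59, adjusted p = 0.00733). Zfp42 (REX1), a marker of naive ESCs, went from 26000, 8468 and 24210 to 1100, 1049 and 458 (-4.42 ± 0.74, adjusted p = 0.00193). Tfcp2l1, a target of LIF signalling, went from 10010, 1922 and 12210 to 418, 501 and 560 (-3.96 ± 0.69, adjusted p = 0.00262). Esrrb went from 14270, 2947 and 12330 to 564, 452 and 747 (-4.02 ± 0.87, adjusted p = 0.0121, or 0.0512 without FOXA2+ replicate 1). The others called were Dppa3, Nr5a2, Klf2 and Klf4, with log2 fold changes from -6.04 to -4.40, and each of these 4 lost its call without D0 replicate 3. Klf4 was not called in 5 of the 6 fits that left out 1 library (adjusted p up to 0.156), Klf2 in 4 (up to 0.0847) and Nr5a2 in 3 (up to 0.103). Prdm14 had 373, 149 and 678 counts at D0 and 2.71, 0 and 0 in FOXA2+ cells, with an adjusted p of 0.067. Tbx3 was not called and had 771, 1869 and 2551 counts in FOXA2+ cells against 5051, 1043 and 5825. The list had 8 calls also without D0 replicate 2, but 5 without D0 replicate 1, 4 without D0 replicate 3 and 5 without FOXA2+ replicate 1.

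In double-negative cells of D2 Nanog was at 1448, 7024 and 4727 and Zfp42 at 4117, 9726 and 11840, each above every FOXA2+ library. None of the 18 naive genes was called in double-negative cells against D0 (median -1.10), and none was called in the test between the gates (median -2.76). For Nanog that test gave -6.90 with an adjusted p of 0.244, and for Zfp42 -3.27 with an adjusted p of 0.205. A larger fall in FOXA2+ cells than in double-negative cells was thus not shown for any single naive gene.

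Of 9 core pluripotency genes tested, 8 were called lower and 0 higher, with a median of -1.96. Pou5f1 (OCT4) went from 5923, 4882 and 5724 counts to 56, 256 and 156 (-5.07 ± 1.07, adjusted p = 0.00992), and was 650, 1554 and 1201 in double-negative cells. Other genes' spans cover 31.2% of its exon bases. Utf1 went from 3753, 4227 and 3485 to 50.6, 202 and 0 (-5.39 ± 1.46, adjusted p = 0.043), and kept its call only when FOXA2+ replicate 2 was the library left out (otherwise 0.0627 to 0.156). Dppa5a went from 12420, 8653 and 17920 to 1720, 1720 and 2781 (-2.60 ± 0.35, adjusted p = 0.000321). Sall4 and Trim28 fell by 1.01 and 1.27 on the log2 scale, with adjusted p of 0.011 (0.0701 without FOXA2+ replicate 1) and 0.000851. The exception was Lin28a, an inhibitor of let-7 maturation, with 10360, 14450 and 9570 counts at D0 and 15540, 15260 and 15150 in FOXA2+ cells (0.45 ± 0.25, adjusted p = 0.325). Sox2 could not be measured, since its span lies whole under that of Sox2ot. The list had 4 calls without FOXA2+ replicate 1 and 5 without FOXA2+ replicate 3.

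**Figure D4:**
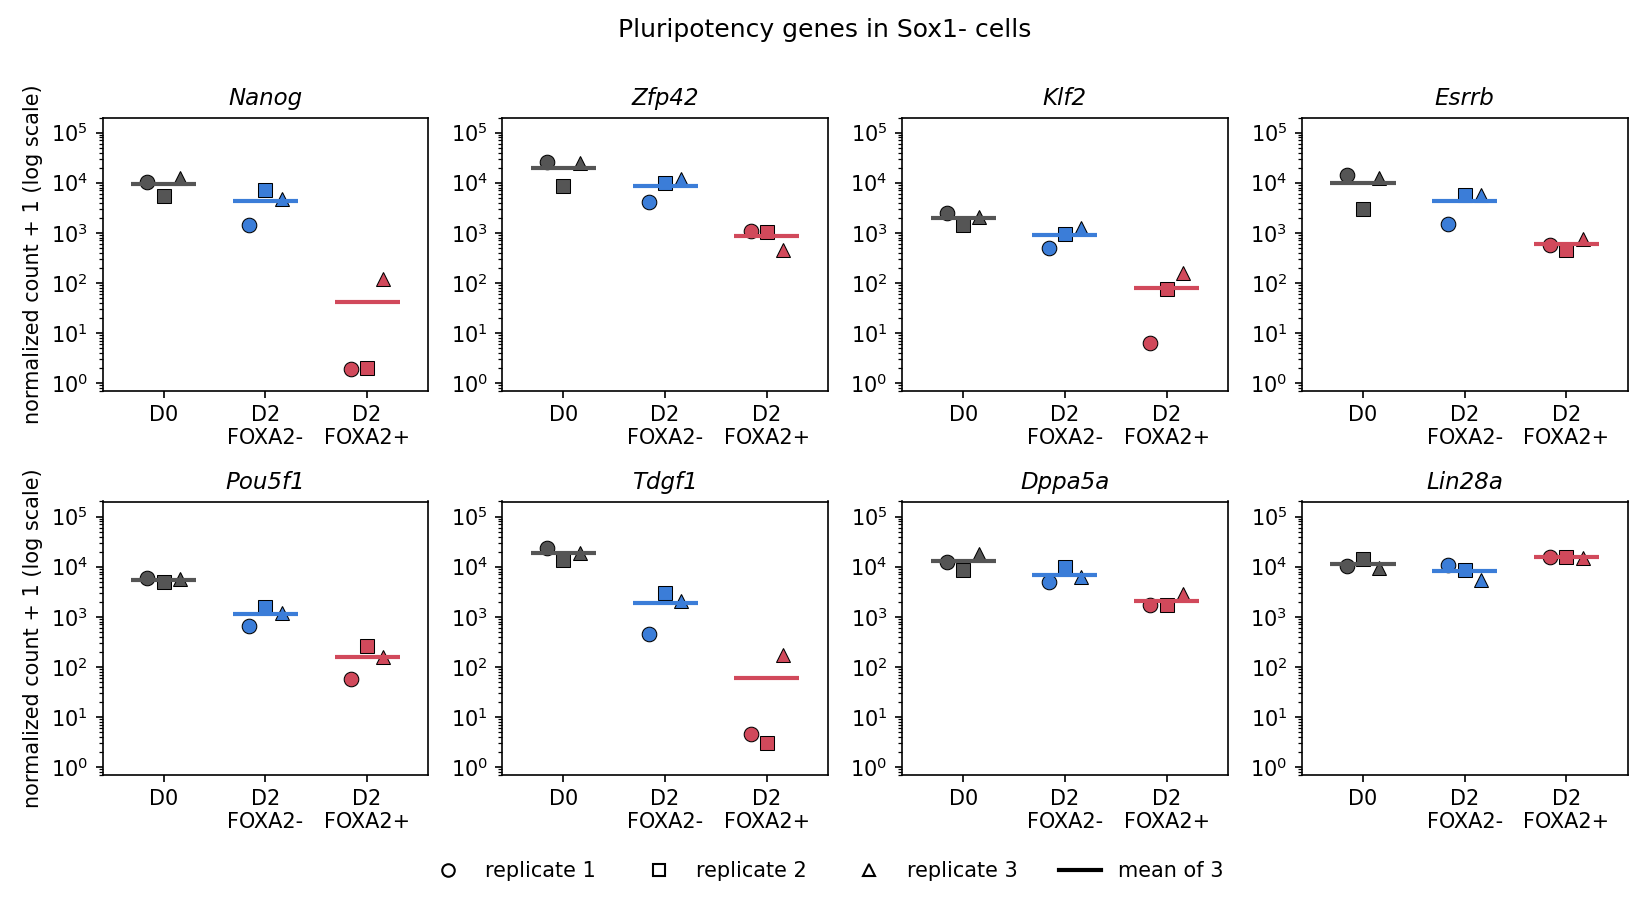
Normalized count plus 1 on a log axis for 8 pluripotency genes at D0, in double-negative cells of D2 and in FOXA2+ cells of D2, one point per replicate and a bar for the mean of 3. Nanog, Zfp42, Klf2, Esrrb, Pou5f1, Tdgf1 and Dppa5a are lower in every FOXA2+ library than in every other library shown, and Lin28a is not.

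Of 15 formative and primed genes tested, 2 were called lower (Lef1 and Dnmt3b) and 1 higher (Sox4), with a median of -2.73 that was -0.73 without D0 replicate 2. Without that library neither Lef1 nor Dnmt3b was called, and the calls were Etv4 lower and Sox4 higher. There was no higher call without D0 replicate 1 or 3, no lower call without FOXA2+ replicate 1 and no call without FOXA2+ replicate 3. Dnmt3b, a de novo DNA methyltransferase, had 2141, 7944 and 3439 counts in FOXA2+ cells (-2.71 ± 0.71, adjusted p = 0.0351), and without D0 replicate 2 its log2 fold change was -0.50 (adjusted p = 0.566). It was also not called without FOXA2+ replicate 1 or 3 (adjusted p up to 0.145). Lef1 lost its call without D0 replicate 2 or any one FOXA2+ library (adjusted p from 0.0621 to 0.262). Otx2 had 645, 5697 and 575 counts at D0 and 47, 0 and 2.19 in FOXA2+ cells (adjusted p = 0.0814). Sox4 went from 528, 1238 and 372 to 1933, 2612 and 5529 (2.24 ± 0.53, adjusted p = 0.02), but 57.4% of its exon bases lie under the spans of other genes, and it was not called without D0 replicate 1 or 3 or FOXA2+ replicate 3 (adjusted p from 0.077 to 0.0939).

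Of 12 genes of DNA methylation and demethylation, 5 were called lower and 1 higher. Tet1, the dioxygenase most used by ESCs, went from 43750, 23150 and 42740 to 6102, 6741 and 4232 (-2.62 ± 0.33, adjusted p = 0.000131), and Tet2 from 14230, 3847 and 13010 to 2081, 2878 and 1920 (-2.10 ± 0.48, adjusted p = 0.0161). Tet3 went up, from 1448, 1201 and 380 to 4106, 4525 and 3196 (1.99 ± 0.50, adjusted p = 0.0299). Tet2 lost its call without D0 replicate 1 or FOXA2+ replicate 1 or 3 (adjusted p from 0.066 to 0.0723), and Tet3 without D0 replicate 3 or FOXA2+ replicate 1 or 2 (0.0743 to 0.106). Zfp57, which guards methylation at imprinted loci, fell by 2.54 on the log2 scale (adjusted p = 0.00477). The number called lower was 3 without FOXA2+ replicate 1 or without FOXA2+ replicate 3. Of 17 imprinted genes tested, 6 were called higher and 0 lower, with a median of 1.32. Mest went from 2275, 2539 and 2423 to 13660, 12340 and 20730 (2.72 ± 0.35, adjusted p = 0.000166) and Peg10 from 24060, 20500 and 11660 to 111300, 87070 and 62790 (2.25 ± 0.47, adjusted p = 0.00903). H19, Peg3, Grb10 and Sgce were the others called, of which H19 and Grb10 each lost the call in 4 of the 6 fits that left out 1 library (adjusted p up to 0.163 and 0.12).

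Of 15 fatty acid genes tested, 6 were called higher and 0 lower, with a median of 1.00. The stearoyl-CoA desaturase Scd2 had the smallest adjusted p of all genes in the comparison, with 6773, 4452 and 6619 counts at D0 and 40260, 47000 and 42170 in FOXA2+ cells (2.91 ± 0.24, adjusted p = 3.78e-06). Its relative Scd1 went from 1287, 1558 and 802 to 9309, 9868 and 14810 (3.24 ± 0.32, adjusted p = 1.13e-05). The desaturases Fads1 and Fads2 rose by 2.82 ± 0.54 and 2.54 ± 0.34. Of 23 cholesterol genes, 8 were called higher and 0 lower, with a median of 1.04. The cholesterol list had 4 calls without D0 replicate 1 and 5 without any one of the FOXA2+ libraries.

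Of 22 genes of glycolysis and hypoxia response, 9 were called lower and 0 higher, with a median of -1.19. Ldha, which makes lactate, went from 21890, 34300 and 18530 to 5013, 5292 and 5827 (-2.18 ± 0.28, adjusted p = 0.000186). Pfkp, a phosphofructokinase, went from 6294, 7043 and 9550 to 659, 1080 and 430 (-3.32 ± 0.52, adjusted p = 0.00104), and Pkm from 60230, 89330 and 60840 to 21780, 23740 and 36680 (-1.33 ± 0.21, adjusted p = 0.00145). The list had 5 calls without D0 replicate 2 and 3 without FOXA2+ replicate 1. Double-negative cells had Scd2 at 43450, 38990 and 36750 and Ldha at 5145, 6379 and 5919, both overlapping FOXA2+ cells. In the test between the gates no gene of these 3 lists was called.

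The signalling lists are given against the 3.96% of all genes that were called. In the Nodal and BMP list 2 of 19 were called higher and 2 lower, one of which, Smad7, an inhibitor of this signalling, lost its call whichever of the 6 libraries was left out (adjusted p from 0.0539 to 0.19). Tdgf1 (Cripto), the coreceptor of Nodal, went from 23420, 13340 and 19130 counts to 3.61, 1.97 and 169 (-8.38 ± 1.74, adjusted p = 0.00913), and Bmp7 went from 44.8, 3.3 and 157 to 1778, 1097 and 1397 (4.50 ± 0.86, adjusted p = 0.00555). In the FGF list 2 of 18 were called higher, Fgfr1 and Spred1, and 1 lower, the ERK target Etv5 (-1.96 ± 0.33, adjusted p = 0.00206). Fgfr1 was not called without D0 replicate 3 or FOXA2+ replicate 1 or 3 (adjusted p from 0.0789 to 0.129). Fzd5 and Lef1 were called lower of 21 Wnt genes, but in 5 and 4 of the 6 fits that left out 1 library they were not (adjusted p up to 0.158 and 0.262), and Notch2 higher of 15 Notch genes (1.81 ± 0.35, adjusted p = 0.00601). In the list of cadherins and EMT, Cdh2 (N-cadherin) was called of 21 tested, from 490, 757 and 302 counts to 4889, 3781 and 3674 (3.01 ± 0.45, adjusted p = 0.000835), while Cdh1 (E-cadherin) had 8192, 6910 and 7665 at D0 and 5457, 4498 and 3608 in FOXA2+ cells (-0.70, adjusted p = 0.21).

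In the S phase list 3 of 16 genes were called lower, Mcm2, Pcna and Ccne1, with log2 fold changes from -1.15 to -0.97. In the G2 and M phase list Mki67 was called higher (1.27 ± 0.20, adjusted p = 0.000912) and Bub1b lower of 18. Mcm2 and Mki67 were called whichever library was left out, whereas Pcna never was, Ccne1 was not in 2 of the 6 fits and Bub1b not in 5. The S phase list thus had 1 call without D0 replicate 1 or FOXA2+ replicate 3. Of 12 heat shock and stress genes, Hspa8 and Hsp90aa1 were called lower. Of 13 LIF and STAT3 targets, Klf4 and Tfcp2l1 were called lower, with 1 call left in 5 of the 6 fits that left out a library. Of 11 trophectoderm genes Tfap2c was called lower, but not without FOXA2+ replicate 1 (adjusted p = 0.0562). No gene was called of 15 p53 targets, 13 immediate early genes and 14 germline genes tested. For other cells the sort could hold, the lists gave no call in 8 fibroblast, 7 blood and endothelium and 6 cardiac and muscle genes tested. Their median log2 fold changes were 0.96, -0.54 and -0.58. Of defining markers, Lum, Tagln, Hba-a1, Hbb-bs and Myod1 were below the filter, and Actc1 could not be measured. Among fibroblast genes 5 of 8 had a positive log2 fold change. Postn was at 0 at D0 and had 0, 19.6 and 287 counts in FOXA2+ cells, Col1a2 had 0, 266 and 20.8 there against 0, 2.64 and 0, Col3a1 had at most 19.9, and Dcn was at 0. Ptprc, which marks blood cells, had 0, 0 and 419. The part of such cells in the results was not tested.

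The largest changes by size are given here for called genes with a mean of at least 200 normalized counts in the higher group and no overlap. The 10 that rose most included Cyp26b1, Syt13, Adgra2, Sox17, Tlcd2, Clic6, Phlda1, Klhdc8a and Bgn, and each of the 10 had no count in any D0 library and was at least 420.5-fold higher in FOXA2+ cells. Adgra2, a coreceptor for Wnt7 ligands, had 963, 518 and 471 and was as high in double-negative cells, at 1271, 549 and 688. The 10 that fell most were Epp13, Hpdl, Zscan4-ps1, Gm46332, Aire, Zscan4a, Slc17a9, Gabrp, Tdgf1 and Krt42. Epp13 had 396, 396 and 1381 counts at D0 and 0 in every FOXA2+ library, at least 764.5-fold lower (adjusted p = 0.0107), and 88.3, 15.5 and 530 in double-negative cells. Aire, the autoimmune regulator, had 52.3, 421 and 132 counts at D0 and 0 in FOXA2+ cells (adjusted p = 0.045). With any 1 of the 6 libraries left out, Aire was not called (adjusted p from 0.0724 to 0.164), and Bgn, Hpdl, Zscan4-ps1, Gm46332, Slc17a9, Gabrp and Krt42 each lost the call in 2 to 5 of those fits.

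Between the gates at D2, Sox1-FOXA2+ against Sox1-FOXA2-, 4 of 21037 genes were called (0.019%), 2 higher and 2 lower, and 1477 had an unadjusted p under 0.05. Igfbp4, a secreted binding protein of insulin-like growth factors, had 4413, 3919 and 7078 counts in FOXA2+ cells, 529, 305 and 618 in double-negative cells and 217, 1009 and 451 at D0. It was 3.42 higher on the log2 scale between the gates (adjusted p = 0.0111). Peg3, a paternally expressed zinc finger gene, had 57860, 68740 and 51660 counts in FOXA2+ cells against 14800, 5504 and 7173 (2.73, adjusted p = 0.0307) and 7707, 24010 and 9140 at D0. Gpx4, the peroxidase that protects membrane lipids, had 2275, 3413 and 3171 against 9091, 15700 and 9181 (-1.92, adjusted p = 0.0307) and 8994, 13430 and 19170 at D0. For these 3 genes the double-negative cells overlapped D0 and the FOXA2+ cells did not. Without double-negative replicate 2 none of the 3 was called (adjusted p = 0.124 for Igfbp4, 0.25 for Peg3 and 0.328 for Gpx4). Peg3 was also not called without FOXA2+ replicate 2 or double-negative replicate 3, nor Gpx4 without any one FOXA2+ library (0.08 to 0.214).

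Zscan4a, a gene of the 2-cell-like state that a few ESCs enter, had 0, 0.983 and 0 counts in FOXA2+ cells, 968, 5232 and 554 in double-negative cells and 80.9, 1191 and 1699 at D0 (-11.97 between the gates, adjusted p = 0.0111, or 0.0578 without FOXA2+ replicate 2 and 0.124 without double-negative replicate 2). It shares sequence with its Zscan4 copies, so its count is uncertain: Zscan4c had 10.8, 23.6 and 1460 in FOXA2+ cells and 5491, 9515 and 985 in double-negative cells, and overlapped. The next genes by p were Arl15, Ptch1, Klf9, Dppa5a, Tfap2c and Gm26691, none called, with adjusted p from 0.101 to 0.197. Foxa2 itself had an adjusted p of 0.476 in this test, although all 3 libraries of the FOXA2+ gate lay above all 3 of the other. No gene was called between the gates without double-negative replicate 2, 1 without FOXA2+ replicate 2, 6 without FOXA2+ replicate 3 and 11 without double-negative replicate 1.

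**Figure D5:**
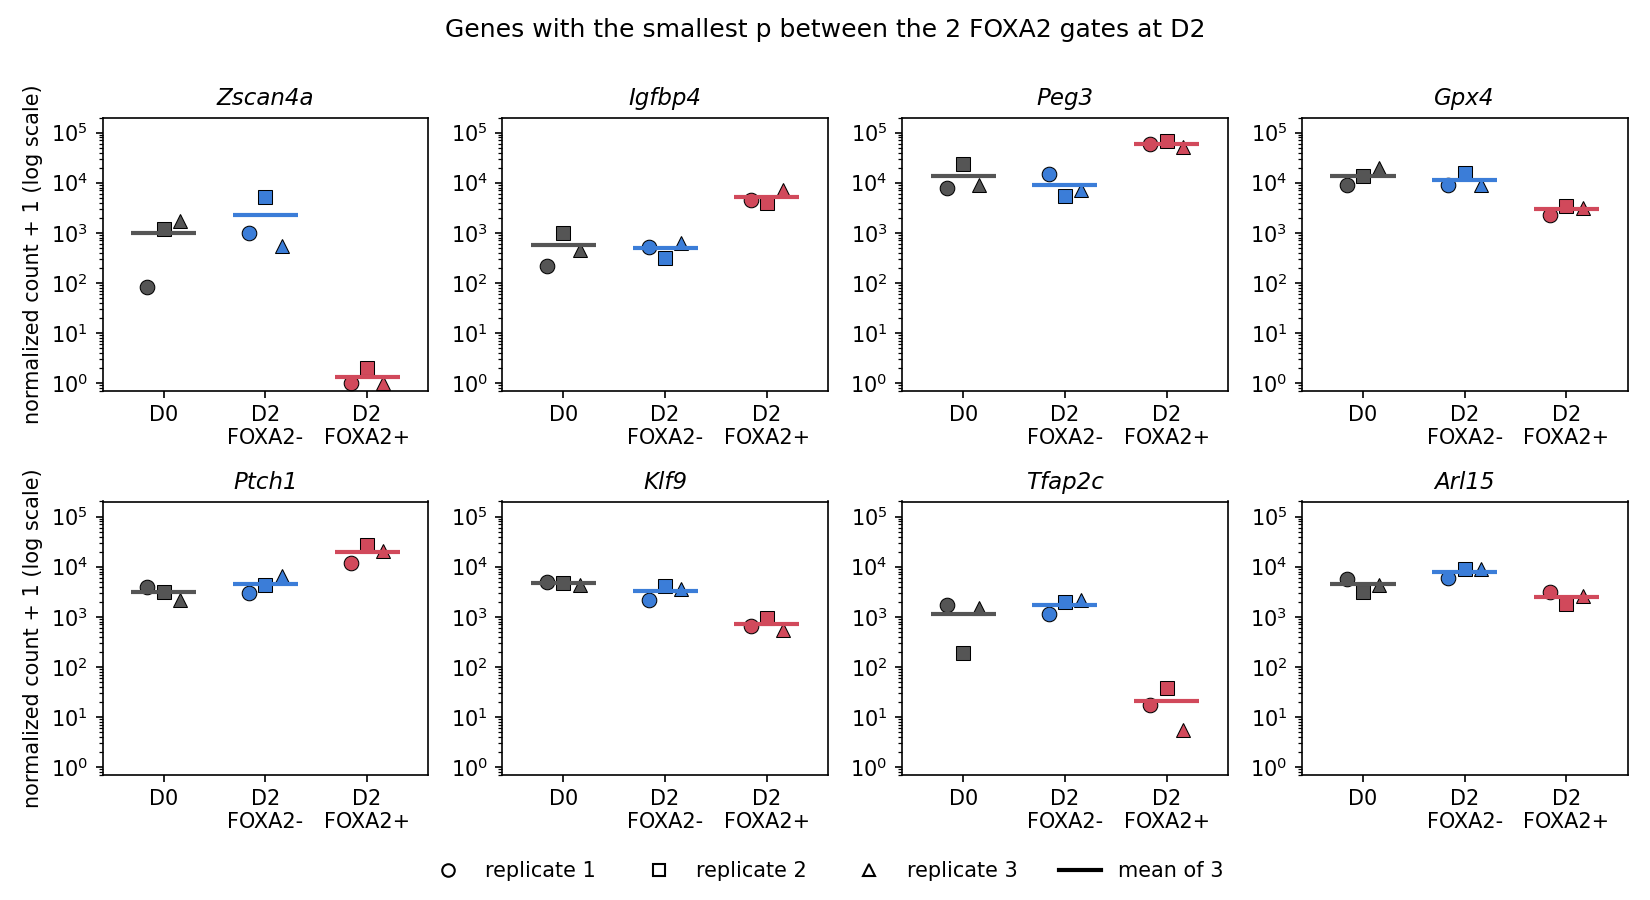
Normalized count plus 1 on a log axis for 8 of the 10 genes with the smallest p between the FOXA2 gates at D2, at D0, in double-negative and in FOXA2+ cells, one point per replicate and a bar for the mean of 3. Igfbp4, Peg3 and Ptch1 are highest in all 3 FOXA2+ libraries, and Zscan4a, Gpx4, Klf9 and Tfap2c are lowest there.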

How the data were processed

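The authors made libraries from small pools of FACS-sorted cells (SMART-Seq Stranded Kit) and sequenced them on a NovaSeq6000. They aligned reads with STAR, sorted them with SAMtools and deposited raw counts per gene from featureCounts on GENCODE release M21 (GRCm38). Tool versions and the strand and multi-mapping settings are not given in the sources used here. In the counts, reads in the span of more than 1 gene, introns included and on either strand, were left out, as read from genes at 0, and between 74.5% and 82.8% of gene counts from 1 to 20 were even numbers, so a fragment may have entered as 2 counts. Rows naming no gene (92) held no counts. Positions of genes are from GENCODE M21.

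Groups and replicate numbers came from the sample titles. No columns were left unmapped, and no 2 libraries were identical. Differences were tested in edgeR 4.0.16 (R 4.3.3) with the two-sided quasi-likelihood test on TMM-scaled counts, in 1 fit of the 15 libraries of D0 and D2, with filterByExpr (minimum count 10, minimum total 15), a prior count of 0.125 and Benjamini-Hochberg adjustment over 21037 genes. SEs were taken from the log2 fold change and its F statistic. Replicates are described as biological replicates of 1 line. Printed levels are counts divided by DESeq2 1.42.0 size factors over 57 libraries. A gene at 0 in all 3 libraries of a group was put at 3 counts over the group for a fold bound. This floor covers counting error only and would be 6 counts if a fragment entered as 2. Transcripts missed in making libraries from small pools of cells are not covered by it. The code was tested on simulated counts. Library measures used exact permutation tests in R.

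The comparison, gene lists and tests were chosen with earlier results of these data known. Named genes were the reporter genes, the 10 largest and 10 smallest log2 fold changes of called, non-overlapping genes with a mean of at least 200 in the higher group and off the mitochondrial genome, up to 8 genes of a list by size of change and then by role, and the 10 smallest p between the gates; genes named beyond these were chosen after their values were seen. Alternatives were another test, other scalings, no filter, a replicate block, other sets of libraries and leaving out each library. The list counts without D0 replicate 2 or FOXA2+ replicate 1, and all alternatives for double-negative cells against D0, were added after seeing the data. Some genes that the rule for named genes selects are not reported here.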

Additional observations from a re-analysis of the deposited data

Results flagged for a closer look

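The change from D0 to D2 differed between the FOXA2 gates for 4 genes, by a test of the difference itself (edgeR quasi-likelihood test between the gates, which share the D0 level). The log2 change of Sox1-FOXA2+ cells less that of Sox1-FOXA2- cells was -11.97 for Zscan4a, 3.42 for Igfbp4, 2.73 for Peg3 and -1.92 for Gpx4. Each had all 3 libraries of one gate beyond all 3 of the other, as did 14.9% of all genes tested. In the Sox1+FOXA2+ cells of D2, which were also in the FOXA2+ gate, Igfbp4 had 3119, 2209 and 4681 normalized counts against 1404, 1228 and 1600 in Sox1+FOXA2- cells. Gpx4 had 2740, 1965 and 2017 against 4891, 3836 and 6480. Peg3 had 39290, 97540 and 89500 against 27070, 32660 and 18130, and Zscan4a had 0, 0 and 1.36 against 624, 65 and 318. These Sox1+ values are a description and were not tested. The share of all genes without overlap between the Sox1+ gates was not computed, so the order of these 4 genes cannot be weighed. No group had more than 3 libraries, so single libraries were not tested for standing apart.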

How the results depend on the processing

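Of 127 named genes called in Sox1-FOXA2+ cells against D0, none changed direction under any alternative run and 54 were called under every one. DESeq2's Wald test called 1486 genes higher and 1158 lower in that comparison, 492 between the gates, and 1126 higher and 617 lower in double-negative cells against D0. With no filter on low counts the numbers were 715, 594, 173, 522 and 363 in the same order. Upper quartile scaling gave 634 lower in FOXA2+ and 376 lower in double-negative cells. With the 6 compared libraries alone, 241 were called higher in FOXA2+ cells and 9 between the gates. With all 39 sorted libraries in the fit the calls were 256 higher and 117 lower in FOXA2+ cells, and 99 higher and 21 lower in double-negative cells. With all 57 libraries 176 were lower in FOXA2+ and 35 lower in double-negative cells. On simulated libraries with no true change, the Wald test called 159 genes in FOXA2+ cells against D0 and 185 between the gates. The edgeR test called 0 in both. Where 200 genes were changed, 58.6% to 76.3% of Wald calls and 8.33% to 11.5% of edgeR calls were false. The simulated counts used the spread that edgeR itself had estimated and the mean of each gene over the 15 libraries. They thus follow edgeR's own model and hold no libraries that stand apart. The share of false calls in the real libraries cannot be read from them. The cause of the shifts in the real libraries was not tested. Leaving out 1 library gave 240 to 525 genes called higher and 118 to 332 lower in FOXA2+ cells, 0 to 11 between the gates, and 82 to 318 higher and 28 to 158 lower in double-negative cells. Of the 4 genes called between the gates, Gpx4 was not called with the 6, 39 or 57 libraries (adjusted p 0.055, 0.077 and 0.056) or without any one FOXA2+ library, and Zscan4a was not called with 39 or 57 libraries. Dropping mitochondrial counts moved the ribosomal share difference from -1.47 to -1.53 percentage points.

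A replicate block gave 475 higher and 408 lower genes in FOXA2+ cells against D0 and 13 genes called between the gates. Same-numbered libraries of FOXA2+ and D0 cells deviated from their group means with correlations of -0.0831, 0.0235 and 0.108 over 5000 genes. Between the gates the correlations were 0.116, 0.0901 and -0.0614. Neither set gave a clear sign that the numbers pair libraries. Correlations of this kind cannot exclude that same-numbered gates came from the same culture, so pairing remains unknown. Of the 127 named genes, 120 stayed called under the replicate block.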
